A study of Mus musculus with 4 samples.

Results

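Transcribed intervals without a gene symbol are stretches of the mouse genome for which the deposited gene tables give coordinates and expression values but a dash in place of a gene name. The 2 tables, one for each pair of a WT and an MSC KO library, held 1925 and 2325 such rows among 24366 and 24752 rows in all. Intervals were kept where a row of one table overlapped a row of the other by at least 1 base, each was matched to its best partner, and no row had a failed estimate. This left 1255 intervals, of which 7 had a mean under 1 FPKM (fragments scaled by transcript length and library total) and were not tested. All coordinates are mouse build mm9, as in the tables.

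The libraries came from naive T cells of C57BL/6 mice, either WT or lacking MSC (musculin, a transcription factor). The cells were sorted and grown for 3 days on plates with anti-CD3/CD28 at 1 µg/ml, with TGF-beta at 2 ng/ml, a mixture that induces regulatory T cells (Treg). Each genotype had 2 libraries, made from total RNA with an Illumina TruSeq RNA kit. The labels do not say whether they came from separate animals, so p-values measure the spread between these libraries, which may be technical. WT 1 and MSC KO 1 were compared by the authors in one table (pair 1) and WT 2 and MSC KO 2 in the other (pair 2).

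Several checks bear on the labels. Msc was listed at 0.0243 and 0.0178 FPKM in WT 1 and WT 2 and at 0.331 and 0.939 FPKM in MSC KO 1 and MSC KO 2, so the library labels and the level of the targeted gene go in opposite directions. "MSC KO" below therefore means the libraries labelled MSC KO. All 5 T cell markers looked up (Cd3e, Cd3d, Cd3g, Cd4 and Lck) were above 1 FPKM in every library. The 5 Treg markers (Foxp3, Il2ra, Ctla4, Ikzf2 and Lrrc32) summed to 510 and 538 in WT against 592 and 518 FPKM in MSC KO, and they did not go one way. Foxp3, the defining Treg factor, was at 62.8 and 66.0 in WT against 2.97 and 7.05 FPKM in MSC KO, and Ikzf2 and Lrrc32 were also lower in both pairs. Ctla4 was higher in both pairs, and Il2ra was at 302 and 317 in WT against 364 and 307 FPKM in MSC KO. The 4 myeloid markers found summed to at most 0.750 FPKM.

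Rows of this kind are made when a transcript assembler joins reads into a unit that overlaps no gene of the annotation it was given. They can hold long noncoding RNAs, enhancer-derived transcripts, unannotated ends of known genes, genes absent from an older annotation, and pieces of the antigen receptor loci, whose segments are rearranged in lymphocytes. T cells assemble their receptor from the Tcra and Tcrb loci, or from Tcrg and Tcrd, while B cells use the immunoglobulin loci Igh, Igk and Igl.

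The intervals were mostly short and none overlapped a row with a symbol. Their lengths in the first table ran from 43 to 16242 bp with a median of 299 bp. There were 368 under 200 bp, 759 from 200 to 1000 bp and 128 over 1000 bp. At the limits stood a 199 bp interval 0.062 kb from Mre11a (chr9:14641338-14641536), a 201 bp interval near Rsph4a (chr10:33639000-33639200), a 1000 bp interval near Eif2c3 (chr4:126011394-126012393) and a 1002 bp interval near Slamf7 (chr1:173558830-173559831). Chromosome 7 held 137 intervals, chromosome 5 held 111 and chromosome 6 held 96, against 22 on X and 1 on the mitochondrial genome.

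Most intervals lay within 50 kb of a gene. The nearest symbol row was within 5 kb for 499 intervals, at 5 to 50 kb for 545 and over 50 kb away for 210, and the mitochondrial interval had no symbol row on its chromosome. Within 5 kb, 299 lay before the 5′ end of the gene, 151 after its 3′ end and 49 beside a gene whose strand could not be taken from GENCODE by name. Of 15 immune genes looked up, Ctla4 alone had an interval within 50 kb. No interval lay within 50 kb of Foxp3, Il17a, Il17f, Il4, Il13, Il5, Il9, Il10, Il2, Il2ra, Gata3, Klf2, Ikzf2 or Msc. The interval nearest to Msc was 1349 kb away, beside Rpl7, and held 12 and 1 fragments in WT and 3 and 10 in MSC KO.

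The FPKM of an interval depended strongly on its length. Multiplied by an effective length, 1253 of the 1255 intervals gave whole numbers of fragments in all 4 libraries, within 0.05 of a whole number. The effective length assumed fragments of 200 bp on average (SD 80, from 38 to 440 bp). With that model, 1 fragment in WT 1 was worth 529 FPKM in an interval of 50 bp, 15.6 FPKM at 100 bp, 1.21 FPKM at 200 bp and 0.0439 FPKM at 1000 bp. The fragment totals that scaled the libraries, estimated from the same model, were 28575637 and 39089172 in WT and 31499894 and 37500045 in MSC KO. Levels below are therefore given as fragments, or as FPM (fragments scaled to a library total of 1000000), wherever intervals are compared.

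**Figure D1:**
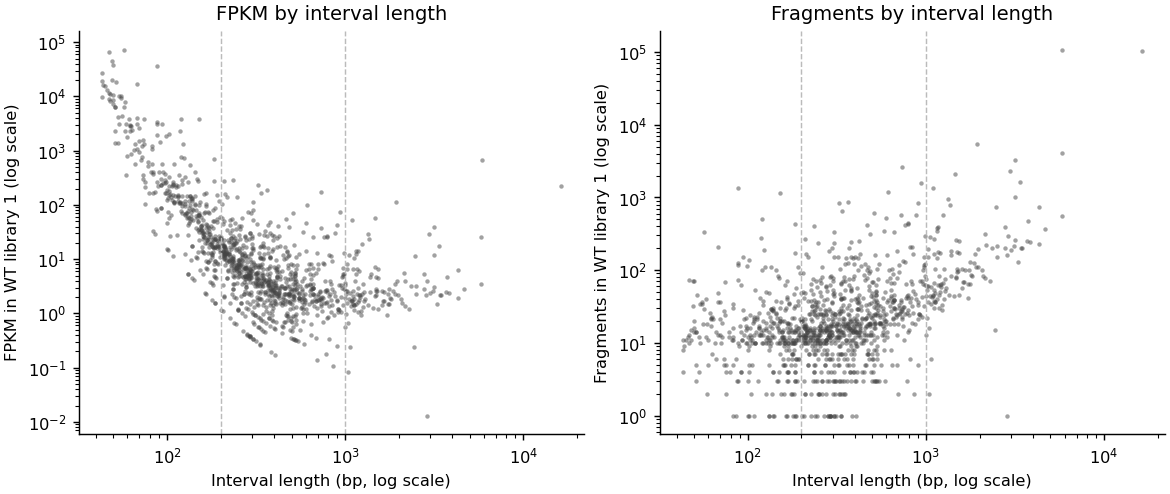
Level of the tested intervals in WT library 1 against their length in the first table, both on log scales, as FPKM (left) and as fragments (right). Points are intervals, values of 0 are not drawn, and dashed lines mark 200 and 1000 bp. The left cloud climbs steeply below 200 bp, where 1 fragment is worth over 1 FPKM, while the right cloud does not.

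Shares on the 2 scales were opposite. Intervals under 200 bp held 98.6% of the summed FPKM of the intervals in WT 1 but 3.76% of their fragments. Intervals over 1000 bp held 0.248% of that FPKM and 84.0% of the fragments. The 4 highest FPKM means in the short class belonged to intervals of 47 to 88 bp near Hyou1, Rpsa, Rfwd2 and Lphn3. The one near Hyou1, which encodes a chaperone of the endoplasmic reticulum (chr9:44183258-44183314), stood at 73161, 115214, 88688 and 112738 FPKM in WT 1, WT 2, MSC KO 1 and MSC KO 2. Those values came from 339, 457, 453 and 429 fragments. Its groups overlapped on both scales. The 88 bp interval 1383 kb from Lphn3 (chr5:80067356-80067443) was the deepest of the short class, with 1358 and 2041 fragments in WT and 1684 and 2685 in MSC KO. The 47 bp interval 1.26 kb before Rpsa, a ribosomal protein gene (chr9:120035574-120035620), had 74 and 101 in WT and 67 and 69 in MSC KO.

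The drawn ends of an interval could differ between the tables, and its FPKM with them. The interval near Ceacam15 on chromosome 7 was 203 bp long in one table (chr7:17279170-17279372) and 57 bp in the other. It held 17 fragments in each WT library, listed as 19.5 and 2682 FPKM. Only 13 intervals had the same start and end in both tables, and 968 shared at least 50% of both. WT and MSC KO share the drawn ends within a pair, so differences below were taken within pairs.

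A pair of intervals held most of the fragments. The mitochondrial interval covered almost the whole mitochondrial genome (16242 bp) and held 102588 and 153453 fragments in WT and 135798 and 172868 in MSC KO. It stood at 224 and 244 in WT against 269 and 287 FPKM in MSC KO, higher in both pairs, by a limma difference of 0.25 ± 0.09 (log2, SE; adjusted p = 0.308 by limma). The second, chr17:39979944-39985776 between Esp23 and Pgk2, held 108411 and 145052 fragments in WT and 62676 and 115307 in MSC KO. RefSeq lists 8 genes without a symbol row here between those neighbours, among them Rn18s-rs5, a pseudogene related to ribosomal RNA. It was lower in both pairs (limma difference -0.60 ± 0.21, adjusted p = 0.306). Together they took 70.9% and 69.8% of the interval fragments in WT and 67.1% and 69.0% in MSC KO.

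What lies between the same pair of neighbouring genes in RefSeq (GRCm38, used for names and order only) was looked up for all intervals. For 96 intervals the gap held antigen receptor segments, for 226 a protein-coding gene with no symbol row matched here, and for 454 a long noncoding RNA without one. For 82 it held other kinds of gene, for 362 no further gene, and for 35 the neighbours could not be found in RefSeq. The protein-coding group included 24 intervals between Snora30 and Phkg2, where RefSeq places Srcap, a chromatin remodelling ATPase. It also included 20 between Rpl6 and Trafd1 (Hectd4, a HECT-domain ubiquitin ligase), 12 between Smagp and Cela1 (Bin2) and 10 between Rhof and Hpd (Setd1b, a histone methyltransferase).

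Between genotypes, the intervals as a whole showed no common shift. Of the 1248 tested, 379 were higher in MSC KO in both pairs and 415 were lower, against 31.1% higher and 37% lower over all 11835 features tested. The median difference was -0.02 in pair 1 and -0.04 in pair 2 (log2 of FPKM + 1), and the same medians over all features were -0.00 and -0.04. Differences of at least 2-fold in both pairs were more frequent among intervals. They were found for 101 intervals higher and 92 lower, where the background over all features was 2.04% and 1.5%. The matching shares of intervals were 8.09% and 7.37%. Without the intervals that held under 40 fragments over the 4 libraries, 56 higher and 58 lower remained among 1066 intervals.

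Low fragment numbers went along with disagreement between the pairs. The median gap between the 2 pairs' differences was 1.49 on the log2 scale for the 182 intervals with under 40 fragments, 0.60 for the 283 with 80 or more but under 160 and 0.28 for the 177 with 400 or more. Symbol rows had a median gap of 0.18. By length, the median gap was 1.00 under 200 bp, 0.59 from 200 to 1000 bp and 0.29 over 1000 bp. At least 2-fold differences in opposite directions were seen in 39 intervals, of which 31 held under 40 fragments. Intervals were mostly those with at least 10 fragments in 1 library or more: in pair 1, 716 intervals had at least 10 fragments in both libraries, 242 in WT alone, 281 in MSC KO alone and 16 in neither. An interval low in one library of a pair was thus nearly always at 10 or more in the other, so the share of 2-fold differences among shallow intervals is no support for a difference between genotypes.

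**Figure D2:**
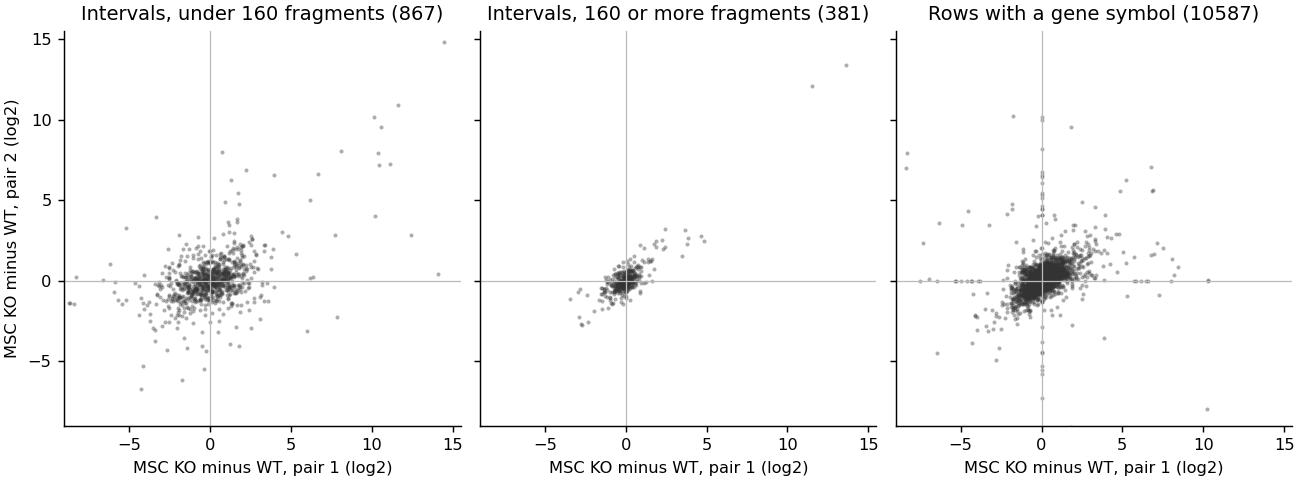
Difference between MSC KO and WT (log2 of FPKM + 1) in pair 1 (x axis) and pair 2 (y axis) for intervals with under 160 fragments, intervals with 160 or more, and rows with a gene symbol. Each point is an interval or gene. The 381 deeper intervals lie closer to the diagonal than the 867 shallower ones.

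The test across all features (limma on log2 of FPKM + 1 with the pair as a block, Benjamini-Hochberg over 11835 features) called 7 intervals higher in MSC KO and none lower. Over all features 0.0676% were called higher and 0% lower. The eighth call was Rnu73b, a small nucleolar RNA row listed at 0 and 0 in WT against 110 and 135 FPKM in MSC KO. All 7 intervals were under 200 bp and had 0 fragments in both WT libraries. They passed the filter on the mean through MSC KO alone, and with both WT libraries at 0 the WT side gave no spread, so these calls are no support beyond the fragments themselves. An unadjusted p under 0.05 was reached by 395 intervals, 192 of them higher and 203 lower. That is 31.7% of the intervals, against 18.1% of all features. With 2 libraries a group the test has 1 residual degree of freedom, and none of the 7 was called when either WT library was left out (adjusted p from 0.0908 to 0.180) or when features under 1 FPKM were kept in the fit (adjusted p = 0.419).

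The strongest of the 7 by fragments was a 78 bp interval 17.8 kb from Barhl1, a homeobox gene of the nervous system that was at most 0.0394 FPKM here (chr2:28789745-28789822). It held 0 and 0 fragments in WT and 316 and 325 in MSC KO. Against a floor of 3 fragments per library this is at least 95.6-fold higher in pair 1 and at least 113-fold higher in pair 2. Its adjusted p was 0.0104 by limma, and the fitted difference is not given as a size, since against 0 it is set by the pseudocount. RefSeq places 1 gene without a symbol row here, Gm13394, in that gap.

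The other 6 were thinner. The interval between Gpr143 and Usp51, a deubiquitinase gene (chrX:149344502-149344579), held 0 and 0 fragments in WT and 74 and 102 in MSC KO, at least 22.4-fold and 35.4-fold higher (adjusted p = 0.0264 by limma). RefSeq lists 2 ribosomal protein pseudogenes, Rpl7a-ps12 and Rps7-ps3, between those neighbours. The interval 25.5 kb from Speer4a (chr5:26335216-26335333) held 0 and 0 against 37 and 38 fragments, at least 11.2-fold and 13.2-fold higher (adjusted p = 0.0142 by limma).

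The remaining 4 held between 12 and 23 fragments in each MSC KO library. The interval near Gpr137b-ps (chr13:12771360-12771405) had 23 and 21 in MSC KO, where its 46 bp turned these into 23089 and 28949 FPKM. The interval near Nmur2, a neuropeptide receptor gene (chr11:56076114-56076186), had 21 and 18. The interval near Nnat (chr2:157354369-157354426) had 18 and 16. By limma the adjusted p of the 7 ran from 0.0104 to 0.0394. The interval near Fam92a (chr4:12164048-12164163) had 13 and 12, at least 3.93-fold and 4.17-fold higher. Of the genes nearest to the 7 intervals, Fam92a alone passed the filter of 1 FPKM, at 40.6 and 42.8 in WT against 43.1 and 45.1 FPKM in MSC KO.

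**Figure D3:**
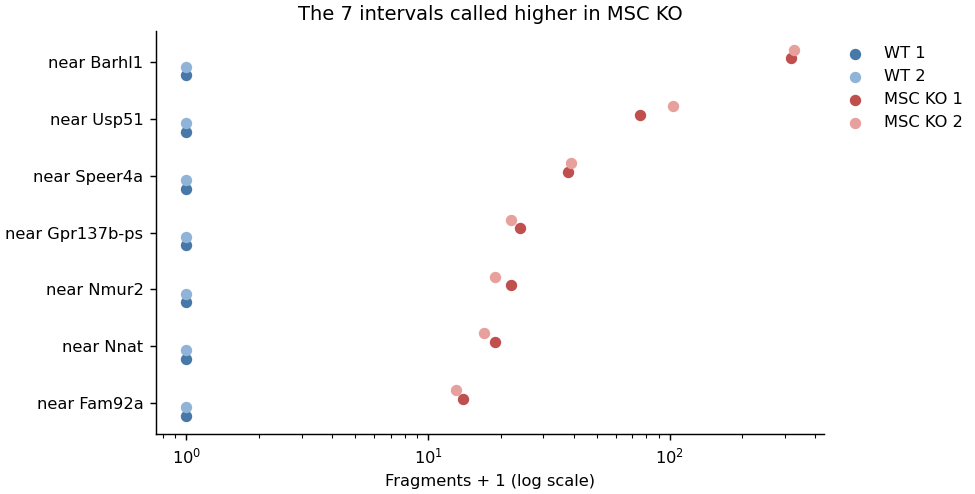
Fragments + 1 (log scale) in each of the 4 libraries for the 7 intervals called higher in MSC KO, named by their nearest gene. Both WT libraries stand at 0 fragments in every row, and the MSC KO libraries run from 12 to 325 fragments.

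Absence in both WT libraries was not by itself enough for a call. Among the intervals tested, 20 had 0 fragments in both WT libraries, and 12 had 0 in both MSC KO libraries, none of which was called. The interval between Zscan12 and Zkscan3, 2 zinc finger genes (chr13:21473364-21473431), had 0 and 0 fragments in WT and 30 and 44 in MSC KO. It was 68 bp long in one table and 139 bp in the other, MSC KO was listed at 2263 and 149 FPKM, and its adjusted p was 0.191 by limma. The authors' deposited table marked it significant in both pairs (q = 0.0210 and 0.0243). The same tables marked 3 others in both pairs, those near Barhl1, Usp51 and Speer4a, with q = 0.0118 and 0.0143 each. Of the 1255 intervals, whether or not the authors tested them, their deposited tables marked 10 in pair 1 and 10 in pair 2. Among all rows the authors tested, 88 of 13890 (0.634%) were marked in pair 1 and 80 of 14577 (0.549%) in pair 2.

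The groups that follow were formed after the values were seen, from intervals that lie in the same gap between neighbouring genes. Intervals of a gap can be parts of 1 transcript and are not independent. None was called by limma, so their values are given as a description. Ratios are MSC KO over WT in FPM, with exact (Clopper-Pearson) 95% limits that cover counting error only, since reads without molecular identifiers are not independent molecules.

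The loci of the alpha and beta chains of the T cell receptor were the most deeply covered of the receptor loci. The 33 Tcrb intervals together held 394 and 419 FPM in WT and 415 and 455 in MSC KO. The 40 Tcra intervals held 311 and 320 in WT and 314 and 298 in MSC KO. They are all intervals in the gaps from Olfr1507 to Dad1. No label for Tcrd was used, so any delta chain segments there count as Tcra. Across the pairs Tcrb and Tcra both overlapped between WT and MSC KO. Within pairs the Tcrb ratios were 1.05 (1.03 to 1.08) and 1.08 (1.06 to 1.11), and the Tcra ratios were 1.01 (0.981 to 1.04) and 0.930 (0.906 to 0.954). The largest single interval, chr14:54841952-54843881 and 11.3 kb from Dad1, held 5495 and 7493 fragments in WT and 6213 and 6802 in MSC KO. Its limma difference was -0.02 ± 0.09 (adjusted p = 0.921). The largest Tcrb interval, chr6:41492557-41498357 between Prss2 and Ephb6, held 4132 and 5874 fragments in WT and 4654 and 6422 in MSC KO.

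Within Tcrb the gaps differed a little in direction. The 7 intervals between Prss2 and Ephb6 summed to 262 and 271 FPM in WT and 298 and 323 in MSC KO. The 25 intervals between 2210010C04Rik and Try4 summed to 118 and 134 in WT and 100 and 121 in MSC KO. The ratios were 1.14 and 1.19 in the first gap and 0.850 and 0.905 in the second.

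The gamma chain locus was lower in MSC KO. All 6 Tcrg intervals, between Amph and Stard3nl on chromosome 13, were at least 2-fold lower in both pairs. They summed to 352 and 580 fragments in WT and 21 and 44 in MSC KO, or 12.3 and 14.8 FPM against 0.667 and 1.17. The ratios were 0.0541 (0.0331 to 0.0840) and 0.0791 (0.0568 to 0.108). The interval with the most fragments, chr13:19396539-19397067, held 103 and 187 in WT and 8 and 17 in MSC KO (adjusted p = 0.144 by limma). A shorter one, chr13:19403116-19403337, held 11 and 20 in WT and 0 and 0 in MSC KO, at least 4.04-fold and 6.40-fold lower. Without the block by pair, this interval and chr13:19436418-19436752, with 40 and 41 fragments in WT and 0 and 1 in MSC KO, were called lower (adjusted p = 0.0387 and 0.0491 by limma). With the block, their adjusted p was 0.155 and 0.165 by limma. Without it, 16 of 11835 features were called lower, 7 of them intervals. Both intervals passed the filter on the mean through WT alone, with MSC KO at 0 or 1 fragment. These calls are therefore no support beyond the fragments themselves.

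Markers of other T cells were read beside this locus. The CD8 markers Cd8a and Cd8b1 summed to 11.3 and 11.7 in WT against 9.13 and 19.8 FPKM in MSC KO. Cd8a alone was at 1.58 and 1.90 in WT against 0.571 and 0.658 FPKM in MSC KO. Cd8b1 was at 9.75 and 9.75 in WT against 8.56 and 19.1 FPKM in MSC KO, so its pairs differed in direction. Their part in the Tcrg difference was not tested, and in these bulk samples fewer cells of a type and less RNA per cell cannot be told apart.

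The immunoglobulin heavy chain locus was also lower. All 15 Igh intervals, between Tmem121 and Adam6b on chromosome 12, were lower in both pairs, and 3 of them by at least 2-fold in both. Their sum was 149 and 153 FPM in WT and 51.4 and 91.3 in MSC KO, with ratios of 0.345 (0.326 to 0.366) and 0.596 (0.571 to 0.621). The most covered, chr12:114658887-114659500, held 1177 and 1541 fragments in WT and 569 and 978 in MSC KO (adjusted p = 0.226 by limma). Cd79b, a B cell marker that encodes a chain of the B cell receptor complex, was at 6.67 and 5.94 in WT against 4.63 and 4.90 FPKM in MSC KO. Its part in the Igh difference was not tested. Only 2 intervals lay in the Igk locus, with 21 and 25 fragments in WT and 112 and 29 in MSC KO.

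**Figure D4:**
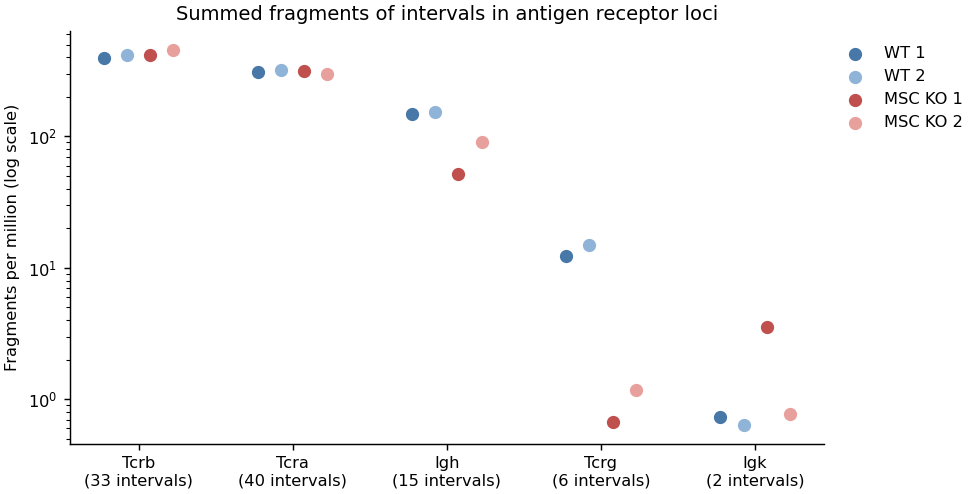
FPM (log scale) summed over the intervals of 5 antigen receptor loci, 1 point for each of the 4 libraries. WT and MSC KO overlap at Tcrb and Tcra and stand apart at Igh (149 and 153 against 51.4 and 91.3) and at Tcrg (12.3 and 14.8 against 0.667 and 1.17). At Igk, MSC KO 1 stands above the other 3 libraries.

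Outside the receptor loci, intervals beside several immune genes were higher in MSC KO. The 5 intervals between Il21, a cytokine gene, and Cetn4 were all at least 2-fold higher in both pairs. They summed to 21 and 14 fragments in WT and 2348 and 390 in MSC KO, with ratios of 101 (66.2 to 164) and 29.0 (17.1 to 53.6). The last of them, chr3:37204113-37204896 and 2.65 kb from Cetn4, held 3 and 8 fragments in WT and 593 and 138 in MSC KO. Il21 itself was at 0.186 and 0.138 in WT against 21.0 and 1.32 FPKM in MSC KO. Cetn4, at the other end of the gap, was also higher in both pairs, at 12.9 and 10.4 in WT against 22.6 and 14.9 FPKM in MSC KO. By fragments MSC KO 1 was above MSC KO 2 in all 5 intervals. The drawn ends differed: chr3:37197631-37200498 was 2868 bp long in the first table and 237 bp in the second, and there FPKM was higher in MSC KO 2 (8.41) than in MSC KO 1 (4.53).

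The 6 intervals between Satb1, a chromatin organiser of T cells, and Kcnh8 were likewise all at least 2-fold higher. They lay 195 to 329 kb before the 5′ end of Satb1 and summed to 50 and 85 fragments in WT and 1232 and 851 in MSC KO, with ratios of 22.4 (16.8 to 30.3) and 10.4 (8.34 to 13.2). The longest, chr17:52302070-52302860, held 41 and 59 fragments in WT and 797 and 658 in MSC KO (limma difference 3.41 ± 0.18, adjusted p = 0.158). Satb1 was at 11.1 and 11.6 in WT against 94.7 and 38.1 FPKM in MSC KO. RefSeq lists 5 genes without a symbol row in that gap, among them Gm20098 and Gm19585.

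The gap after Cd47, which encodes a surface signal against phagocytosis, held intervals of opposite direction. The interval 0.085 kb after the 3′ end of Cd47 (chr16:49914005-49915103) held 1350 and 1693 fragments in WT and 1016 and 1282 in MSC KO, and Cd47 itself was at 192 and 193 in WT against 169 and 160 FPKM in MSC KO. The other 7 intervals, 11.3 kb or more after that end, were higher in MSC KO in both pairs, 6 of them at least 2-fold. The longest, chr16:49954946-49959249, held 230 and 352 fragments in WT and 1254 and 2595 in MSC KO (adjusted p = 0.173 by limma). The authors' deposited table gave it q = 0.0992 in pair 1 and 0.0143 in pair 2.

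Gaps beside 3 transcription factor genes had ratios between 2 and 4. The 6 intervals between 1810013D10Rik and Rbpj, the DNA-binding effector of Notch signalling, had ratios of 2.19 (1.89 to 2.55) and 2.60 (2.27 to 2.99). Rbpj was at 122 and 131 in WT against 213 and 242 FPKM in MSC KO. The 4 intervals between Cox4i1 and Irf8 had ratios of 2.91 and 3.78, while Irf8 was at 252 and 254 in WT against 213 and 248 FPKM in MSC KO. The 4 intervals between Grasp and Nr4a1, a nuclear receptor gene induced by T cell receptor signals, had ratios of 2.08 and 2.19, and Nr4a1 was at 65.8 and 66.4 in WT against 105 and 102 FPKM in MSC KO.

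Other gaps were lower in MSC KO throughout. The 8 intervals between Asnsd1 and Stk17b on chromosome 1, where RefSeq places Dnah7a, an axonemal dynein heavy chain, summed to 237 and 271 fragments in WT and 16 and 92 in MSC KO. Their ratios were 0.0612 (0.0344 to 0.102) and 0.354 (0.276 to 0.450). The 16 intervals between Gm4759 and Olfr693 on chromosome 7 (RefSeq Gm8995, Gm39065 and Gm1966) summed to 1302 and 2115 fragments in WT and 586 and 896 in MSC KO. Their ratios were 0.408 (0.370 to 0.450) and 0.442 (0.408 to 0.478), and 8 of the 16 were at least 2-fold lower in both pairs.

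Near surface molecules of T cells, 2 further gaps were lower. The 6 intervals before the 5′ end of Cd2, an adhesion receptor gene, had ratios of 0.270 (0.199 to 0.363) and 0.293 (0.234 to 0.365). Cd2 itself was at 419 and 434 in WT against 367 and 368 FPKM in MSC KO. Igsf3, at the other end of that gap, was lower in both pairs, at 1.30 and 1.26 in WT against 0.302 and 0.475 FPKM in MSC KO. Its mean was under the filter of 1 FPKM. The 5 intervals between Lrrc32 and 2210018M11Rik, where Lrrc32 encodes GARP, the protein that displays latent TGF-beta on Treg cells, had ratios of 0.415 (0.341 to 0.505) and 0.585 (0.518 to 0.661). Lrrc32 was at 23.9 and 26.0 in WT against 5.78 and 9.46 FPKM in MSC KO. Between Fbrsl1 and Galnt9, 6 intervals had ratios of 0.302 and 0.337, and between Akap11 and Dgkh, a diacylglycerol kinase gene, 4 had 0.181 and 0.588. Of the 44 gaps with at least 4 intervals, receptor loci included, 5 had every interval higher in both pairs and 8 had every interval lower.

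**Figure D5:**
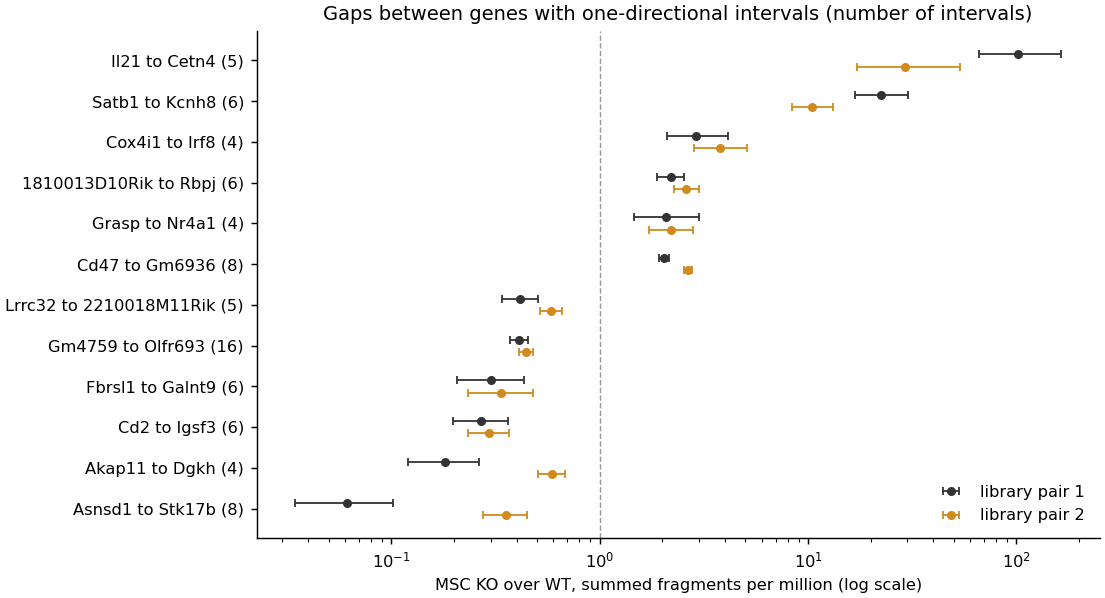
Ratio of MSC KO to WT (log scale) in FPM, summed over the intervals between 2 neighbouring genes, for pair 1 and pair 2. The gaps shown are those of at least 4 intervals outside the receptor loci whose intervals were all tested and all stood on one side. Cd47 to Gm6936, where 7 of 8 did, is added. Bars are exact 95% limits of counting error. Ratios run from 0.0612 (Asnsd1 to Stk17b, pair 1) to 101 (Il21 to Cetn4, pair 1).

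A few other single intervals, named by their rank in a length class or by their length, were higher in MSC KO. The interval 2.53 kb before Irgc1, an immunity-related GTPase gene (chr7:25233228-25233572), held 0 and 2 fragments in WT and 23 and 118 in MSC KO (adjusted p = 0.158 by limma). It was 345 bp long in one table and 765 bp in the other. Irgc1 was at 1.73 and 2.02 in WT against 3.91 and 11.6 FPKM in MSC KO. The 1002 bp interval 1.8 kb after Slamf7, a receptor gene of activated lymphocytes, held 13 and 10 fragments in WT and 98 and 56 in MSC KO (adjusted p = 0.191 by limma). Slamf7 was at 1.58 and 1.92 in WT against 17.6 and 8.66 FPKM in MSC KO.

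Others, lowest in MSC KO relative to WT in their length class or within 50 kb of a listed immune gene, are given next. Between Cd83 and Jarid2, a Polycomb cofactor gene, chr13:44590125-44590336 held 17 and 30 fragments in WT and 0 and 0 in MSC KO (adjusted p = 0.166 by limma). It was at least 6.25-fold and 9.59-fold lower. The interval 8 kb after the 3′ end of Cwc27, a spliceosome-associated gene (chr13:105413301-105413407), held 19 and 20 fragments in WT and 1 and 0 in MSC KO (adjusted p = 0.198 by limma). Cwc27 itself was at 17.9 and 17.6 in WT against 18.6 and 20.1 FPKM in MSC KO. On chromosome 12, chr12:20926826-20927120, 105 kb from 1700030C10Rik, held 36 and 50 fragments in WT and 1 and 0 in MSC KO (adjusted p = 0.158 by limma). Among intervals over 1000 bp, chr6:128799121-128800222 between Klrb1b and Clec2i, 2 C-type lectin genes, held 166 and 177 fragments in WT and 26 and 22 in MSC KO (adjusted p = 0.165 by limma). Clec2i was at 12.2 and 12.7 in WT against 2.51 and 4.29 FPKM in MSC KO. The interval 12.8 kb from Tarm1 (chr7:3476099-3477111) held 61 and 81 fragments in WT and 5 and 2 in MSC KO, and Tarm1 itself was listed at 0 in all 4 libraries. Near Ctla4, an inhibitory receptor gene, the interval with the highest FPKM (chr1:60955746-60955871) held 15 and 48 fragments in WT and 0 and 48 in MSC KO, while Ctla4 was at 112 and 120 in WT against 217 and 188 FPKM in MSC KO. The interval was 126 bp long in one table and 1204 bp in the other.

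Directions were also counted by distance to the nearest gene. Up to 5 kb, 167 intervals were higher in both pairs and 132 lower. At 5 to 50 kb, 168 were higher and 182 lower. Over 50 kb, 43 were higher and 101 lower, with median differences of -0.44 and -0.35. Of those 210 far intervals, 57 lay in receptor loci, where 3 were higher and 30 lower. The other 153 had 40 higher and 71 lower, with medians of -0.35 and -0.22. These counts were not tested, and over all features 31.1% were higher and 37% lower.

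Intervals tended to differ in the direction of their nearest gene. Among 438 intervals up to 5 kb from a gene that also passed the filter, the mean differences of interval and gene had the same sign in 65.5%, with Spearman's rho of 0.48. Within 5 to 50 kb the sign was shared in 60.4% of 389 and rho was 0.32. Over 50 kb it was shared in 63.9% of 108, with rho 0.26. Restricted to intervals with at least 160 fragments, rho was 0.60 over 126 intervals up to 5 kb and 0.50 over 117 at 5 to 50 kb, and it was 0.59 over the 19 beyond 50 kb. These are correlations across intervals that share libraries, and often a neighbouring gene, so they carry no p-value.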

How the data were processed

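RNA was sequenced from 4 libraries, WT and MSC KO with 2 each. Reads were aligned with TopHat to mm9, per the submitters' processing notes; the sources name no other step. The authors deposited 2 gene tables with WT and MSC KO values, which are read as FPKM since fragments per effective length turned out whole, and with the authors' p-value and q-value per row. Each start in the tables counts from 0, because the end minus the start gave the effective lengths that fitted, and starts are printed 1 higher. No value column was left unmapped (0).

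Intervals were matched as mutual best overlaps between the tables. Levels were compared with limma 3.58.1 in R 4.3.3, two-sided, on log2(FPKM + 1), with the pair as a block and a trended prior, over features with a mean of at least 1 FPKM; the call is a Benjamini-Hochberg adjusted p under 0.05. A fold change on this scale understates low values. No count test was run, since the tables hold FPKM. Fragments were recovered as described with the results (Python 3.11.15, scipy 1.17.1) and were used for levels, ratios and floors of 3 fragments. Precision follows from the fragment total that scaled each library, given with the results, and 95% limits cover counting error only. The scripts were tested on simulated data.

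Intervals named are all those called; in each length class the 4 with the highest mean and the 4 largest differences each way shared by both pairs; those marked by the authors in both pairs; those nearest to named immune genes; and those at the length limits. The gaps, the receptor loci and the intervals with the most fragments were added after values were seen. The members and lists were chosen with earlier results of these data known. Alternatives changed the pseudocount, filter, scaling, block, prior, overlap rule and libraries; 2 more, a minimum of 40 fragments and leaving out receptor loci, were chosen after seeing the data. Some marker results are not reported here.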

Additional observations from a re-analysis of the deposited data

How the results depend on the processing

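The block by pair rests on the authors' own tables, and the labels do not say that same-numbered libraries share an animal or a day. Deviations of same-numbered libraries from their group means had a correlation of 0.451 over 1248 intervals, 0.815 over the 381 with at least 160 fragments, and 0.0589 over 10587 symbol rows; within a table WT and MSC KO share the drawn ends of an interval. With no replicate block, 12 intervals were called higher, 7 lower, and 46 features in all. The 7 intervals called higher became 0 with no filter on low values (0 of all features), 1 with identical start and end, where 1 of the 7 could be tested (3 of all features), 0 without intervals under 200 bp, which leaves all of them out (0 of all features), and 4 with at least 40 fragments, where 4 of the 7 could be tested (5 of all features). Leaving out 1 library gave 0 to 35 intervals called higher, 0 to 20 lower and 0 to 297 features in all, with 0 calls without WT 1 or WT 2, 13 intervals higher without MSC KO 1, and 35 higher and 20 lower without MSC KO 2. Without a trend in the prior, 6 of the 7 were called, the interval near Nnat being lost (adjusted p = 0.0645 by limma); with pseudocount 0.1, the rescaled values, a mean of at least 10 FPKM and an overlap of at least 50%, all 7 were.

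For directions, a mean of at least 10 FPKM left 135 intervals higher and 177 lower in both pairs, 45 and 30 by at least 2-fold, and a median difference of -0.0623. Identical ends left 3 higher, 3 lower, 1 and 0 by 2-fold, a median of 0.0844 and 13 matched intervals in all. An overlap of at least 50% left 64 at least 2-fold higher. A 1.5-fold threshold gave 159 higher and 163 lower, and a minimum of 40 fragments gave 56 and 58 at 2-fold. Leaving out 1 library, which leaves 1 pair, gave 598 to 614 higher and 634 to 650 lower, 175 to 246 and 170 to 249 by 2-fold, and medians from -0.0431 to -0.0161. The alternatives with fewer intervals test fewer features by construction; the cause of the other changes was not tested. Depth limits the short intervals, since 1 fragment more or less moves an interval of 100 bp by 11.4 to 15.6 FPKM.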

Other observations

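The 22 intervals on the X chromosome leaned one way. In both pairs 14 were higher in MSC KO and 2 were lower, while among the 332 symbol rows tested on X 109 were higher and 124 lower. The median difference was 0.52 in pair 1 and 0.30 in pair 2 (log2 of FPKM + 1). A lean was not particular to X. On chromosome 12, 10 of 54 intervals were higher in both pairs and 35 lower, and on chromosome 4, 23 of 50 were higher and 7 lower. The 35 on chromosome 12 include the 15 Igh intervals, which were all lower in both pairs and are not independent. Over all features 31.1% were higher in both pairs and 37% lower. Chromosome 10 had 17 higher and 17 lower of 49. Some of the intervals on X lie side by side and are not independent. Besides the called interval near Usp51, chrX:69061822-69062027, which lies 0.09 kb before the 5′ end of Vma21, a gene for an assembly factor of the vacuolar proton pump, held 1 and 1 fragments in WT and 12 and 13 in MSC KO (adjusted p = 0.154 by limma). The interval 98.5 kb from Sh2d1a, the gene of the signalling adaptor SAP (chrX:39756710-39757011), held 2 and 15 fragments in WT and 12 and 72 in MSC KO. The deepest on X, chrX:7615965-7616147 near Glod5, held 425 and 498 fragments in WT and 502 and 531 in MSC KO. The direction on X was noticed in the data and was not tested.

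RefSeq places a protein-coding gene without a symbol row matched here at 224 intervals. Of these, 52 were higher and 87 lower in both pairs, or 23.2% and 38.8%. Of 360 in gaps with no further gene, 129 were higher and 95 lower, or 35.8% and 26.4%. Over all features 31.1% were higher and 37% lower. The share lower in the first group and the share higher in the second lay near those of all features. The share higher in the first group and the share lower in the second were smaller than those. The 24 intervals at Srcap had ratios of 0.787 and 0.900, and the 12 at Bin2 0.789 and 0.741. The 20 intervals at Hectd4 had ratios of 0.954 and 1.17, so the pairs differed in direction there, and the 10 at Setd1b had 1.14 and 1.85. At Setd1b the median difference over the 10 intervals was 0.18 in pair 1 and -0.15 in pair 2 (log2 of FPKM + 1), with 4 higher and 2 lower in both pairs, so the summed ratio does not describe most of them. None of these differences was tested.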
